A study of Mus musculus with 4 samples.

Results

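Fos, Fosb, Jun, Junb, Egr1, Ier2, Atf3, Nr4a1, Nr4a3 and Dusp1, a set of 10 immediate early genes, were followed on every array of a study of brown adipose tissue, a fat depot whose cells release energy as heat. The genes were named as a list and each was read from the probe set with 1 gene symbol and the highest mean. All 10 had exactly 1 such probe set, so no choice between probe sets arose, and they stand among 22180 genes read in the same way. The list was chosen from earlier results on these same arrays, in which the genotype difference of such genes turned with the knockout array left out, so the values here describe that pattern and no test of it is given.

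Tissue came from male C57BL/6 mice aged 4 months on a chow diet, which all samples share. One group was wild type (WT) and the other carried a knockout (KO) of Tsku, the gene of the secreted protein tsukushi, with 2 samples in each and 1 array per sample. The labels call the samples of a genotype biological replicates and do not say that each came from a separate mouse, so the spread between them may be partly technical. The labels read here do not describe the allele or the cells in which the gene is lost.

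Immediate early genes are transcribed within minutes of a stimulus, without the need for new protein, and their messenger RNAs are short-lived. Growth factor signals reach them through the ERK kinases and serum response factor with its ternary complex partners, and cyclic AMP signals reach them through protein kinase A and CREB. In brown fat, noradrenaline from sympathetic nerves raises cyclic AMP through beta-adrenergic receptors, and Fos and Nr4a genes are among the known early targets of that signal. Most of the products are transcription factors, while Dusp1 is a phosphatase that switches MAP kinases off again.

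The promoters were searched for elements known from such signals. A 300-base RefSeq window (GRCm38.p6, 250 bases before to 50 after the start) was matched for 8 of the 10 genes, all but Egr1 and Ier2. Shown are Fos, Atf3 and Nr4a3, which were over 1 log2 unit apart between the knockout arrays, Fosb, which ran the other way, and Dusp1, the one with a full cyclic AMP response element (CRE). Capitals mark, on either strand, the CRE (TGACGTCA), its half-site (TGACG) and the EGR motif (GCGNGGGC). The EGR motif overlaps no other match here, and the CRE of Dusp1 holds a half-site on each strand.

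Fos, chr12:85473640-85473939, plus strand: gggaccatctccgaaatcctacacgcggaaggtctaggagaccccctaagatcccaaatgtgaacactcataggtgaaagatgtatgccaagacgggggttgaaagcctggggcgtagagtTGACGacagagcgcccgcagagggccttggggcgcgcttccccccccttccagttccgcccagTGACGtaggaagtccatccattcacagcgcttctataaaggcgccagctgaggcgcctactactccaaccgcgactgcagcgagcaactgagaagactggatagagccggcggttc

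Fosb, chr7:19309996-19310295, minus strand: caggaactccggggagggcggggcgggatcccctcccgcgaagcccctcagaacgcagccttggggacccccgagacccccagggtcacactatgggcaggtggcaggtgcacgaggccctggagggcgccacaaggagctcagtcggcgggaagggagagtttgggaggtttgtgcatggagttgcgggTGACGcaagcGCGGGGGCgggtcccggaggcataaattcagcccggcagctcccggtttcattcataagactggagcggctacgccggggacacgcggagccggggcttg

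Atf3, chr1:191183284-191183583, minus strand: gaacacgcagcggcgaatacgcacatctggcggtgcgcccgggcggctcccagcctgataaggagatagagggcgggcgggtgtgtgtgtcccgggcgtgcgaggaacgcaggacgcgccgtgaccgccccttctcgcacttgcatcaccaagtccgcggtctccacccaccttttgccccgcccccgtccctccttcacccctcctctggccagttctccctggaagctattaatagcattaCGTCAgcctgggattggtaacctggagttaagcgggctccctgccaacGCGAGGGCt

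Nr4a3, chr4:48045055-48045354, plus strand: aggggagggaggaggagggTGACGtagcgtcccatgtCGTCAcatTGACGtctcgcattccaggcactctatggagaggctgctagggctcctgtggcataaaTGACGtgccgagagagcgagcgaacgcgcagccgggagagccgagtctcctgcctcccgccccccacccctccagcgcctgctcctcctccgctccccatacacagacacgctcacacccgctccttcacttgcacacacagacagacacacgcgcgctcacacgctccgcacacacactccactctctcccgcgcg

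Dusp1, chr17:26508423-26508722, minus strand: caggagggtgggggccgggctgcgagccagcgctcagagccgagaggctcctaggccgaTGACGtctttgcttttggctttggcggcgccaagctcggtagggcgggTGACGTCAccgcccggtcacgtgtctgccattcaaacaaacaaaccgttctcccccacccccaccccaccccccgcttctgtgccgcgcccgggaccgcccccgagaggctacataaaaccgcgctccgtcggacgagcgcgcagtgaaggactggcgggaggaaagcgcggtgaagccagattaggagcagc

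The full CRE was found in 1 of the 8 promoters, that of Dusp1, where it begins 143 bases before the start, and 1.79% of 32851 promoters of the same length hold it. The half-site, added to the search after the promoters had been read, was in 7 of the 8, all but Jun, against 20.8% of all promoters. Nr4a1 and Nr4a3 had 4 half-sites each, Fos had them 129 and 66 bases before the start, and Fosb had a half-site 60 bases before it. The EGR motif was in 4 of the 8 (Fosb, Junb, Atf3 and Nr4a1), against 10.7% of all promoters. The AP-1 motif (TGANTCA), the NBRE bound by Nr4a receptors (AAAGGTCA) and the CArG box bound by serum response factor were not in these 8 windows, and 7.81%, 1.51% and 1.63% of all promoters hold them. Bases further than 250 before the start, and the promoters of Egr1 and Ier2, were not searched. A motif missing from these windows may therefore lie elsewhere near the gene. A match describes the letters in these windows and was not tied to binding.

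Array medians lay between 0.56 and 0.58 on the log2 scale, and the background, set at the 95th percentile of 1405 probe sets of olfactory and vomeronasal receptors, lay between 0.63 and 0.81. Brown adipocyte markers fixed as a list were in place, with 11 of 12 above background on all 4 arrays. No check of the deletion was possible, since 0 probe sets were listed for Tsku, and the genotypes are those of the labels. With 2 arrays a genotype, the number of arrays limits the precision. The plus-or-minus distances of the 95% intervals of genotype differences had a median of 0.52 over all genes and 1.17 over the 10 immediate early genes.

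Of the 10 genes, 9 were above background on all 4 arrays, and Fosb on 2 of them. Values below are log2 expression values as deposited, and they are compared between arrays for 1 gene at a time, since levels of different probe sets are not on a common scale.

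The Fos proteins pair with Jun proteins to form the AP-1 transcription factor. Fos read 2.71 and 1.61 on wild-type replicates 1 and 2, and 1.82 and 3.43 on knockout replicates 1 and 2. The 2 knockout arrays were 3.05-fold apart and the 2 wild-type arrays 2.14-fold apart, and the genotypes overlapped. Fosb, the close relative of Fos, read 2.00 and 0.66 in wild type, against 0.99 and 0.30 on the knockout arrays. It was highest on wild-type replicate 1 and lowest on knockout replicate 2, where it lay below background, as it did on wild-type replicate 2. Fosb was the only one of the 10 that was not highest on knockout replicate 2.

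Jun, the main partner of Fos, read 6.36 and 6.56 in wild type, against 6.07 and 6.999 on the knockout arrays. Both wild-type values lay between the knockout values, which were 1.90-fold apart. Junb, a Jun protein that can oppose the action of Jun, read 3.34 and 3.58 in wild type, against 3.55 and 4.25 on the knockout arrays. Knockout replicate 2 was the high array for Junb, and the other three lay within a narrow range.

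Atf3 encodes a stress-induced factor of the same leucine zipper class, which acts mostly as a repressor. It read 3.45 and 3.79 in wild type, against 1.49 and 4.15 on the knockout arrays. Here knockout replicate 1 stood apart on the low side, and the knockout arrays were 6.32-fold apart, the widest gap among the 10 genes. Over all 22180 genes, 2 had a larger excess of knockout replicate 2 over replicate 1.

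Egr1 is a zinc finger factor that rises with ERK signalling. It read 5.07 and 4.58 in wild type, against 4.28 and 5.82 on the knockout arrays, so that both wild-type arrays lay between the knockout arrays. The distance between the knockout arrays was 2.89-fold, against 1.41-fold between the wild-type arrays. Ier2, a nuclear protein induced early by growth factors, read 2.57 and 2.41 in wild type, against 1.70 and 3.24 on the knockout arrays. It had nearly equal wild-type values, and the knockout values stood 2.90-fold apart on either side of them.

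The Nr4a genes encode orphan nuclear receptors. Nr4a1 read 7.25 and 7.80 in wild type, against 7.47 and 8.05 on the knockout arrays, a 1.49-fold distance between the knockout arrays that was about the size of the distance between the wild-type arrays. Nr4a3 read 1.89 and 1.21 in wild type, against 1.05 and 2.60 on the knockout arrays. Its knockout arrays were 2.93-fold apart and enclosed both wild-type arrays. Dusp1 read 6.73 and 6.66 in wild type, against 6.72 and 7.48 on the knockout arrays. Only knockout replicate 2 departed from a common level for Dusp1, 1.69-fold above knockout replicate 1.

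**Figure D1:**
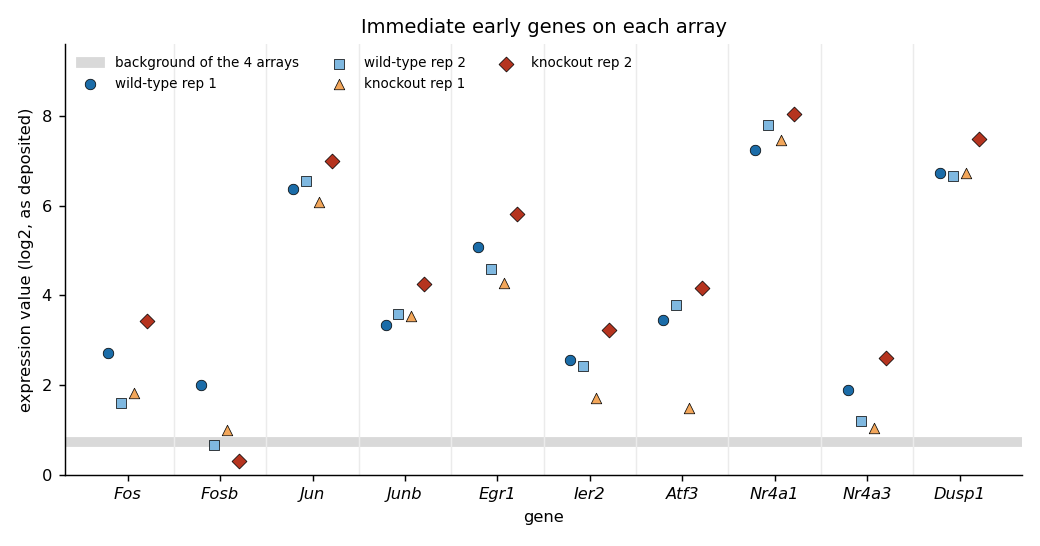
Log2 expression value, as deposited, of each of the 10 genes on each of the 4 arrays, with the range of the background level over the arrays as a grey band. The diamond of knockout replicate 2 is the highest point for 9 genes, and Fosb is the exception, with 0.30 there against 2.00 on wild-type replicate 1.

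Set against each gene's own mean over the 4 arrays, the 10 genes had a median of 0.11 on wild-type replicate 1, -0.17 on wild-type replicate 2, -0.50 on knockout replicate 1 and 0.67 on knockout replicate 2. On knockout replicate 2 the deviations ran from -0.69 for Fosb to 1.04 for Fos, and the lowest among the other nine was 0.41. On knockout replicate 1 they ran from -1.73 for Atf3 to 0.00 for Fosb. For all genes the medians lay between -0.03 and 0.00 on the 4 arrays, and the interquartile range of all genes was -0.13 to 0.15 on knockout replicate 2.

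**Figure D2:**
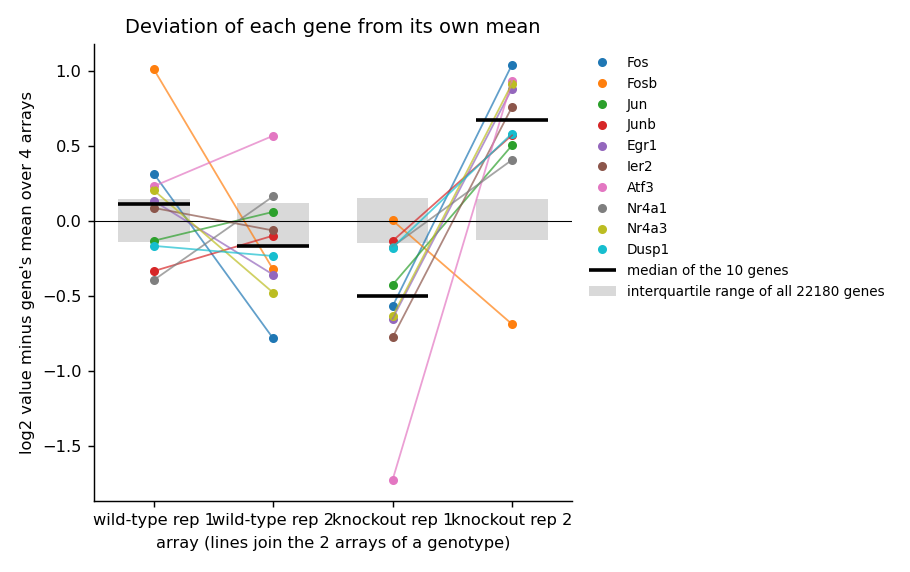
Deviation of each gene's log2 value from its mean over the 4 arrays, by array, with lines joining the arrays of a genotype, black bars for the median of the 10 genes and grey boxes for the interquartile range of all 22180 genes. The medians of the 10 genes are -0.50 on knockout replicate 1 and 0.67 on knockout replicate 2, and the wild-type medians lie between them.

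Knockout replicate 2 held the highest value of 9 of the 10 genes, where it did so for 25.1% of all genes and for 28.6% of the 9927 genes above background on all arrays. Knockout replicate 1 held the lowest value of 5 of the 10 (Jun, Egr1, Ier2, Atf3 and Nr4a3), against 25.3% and 31.1%. These 5 were also highest on knockout replicate 2, an order shown by 7.97% of all genes and 10.1% of those above background on all arrays. By that order the same 5 had both wild-type arrays between the knockout arrays, which is not a further observation. With the knockout arrays in either order, this held for 16.6% of all genes and 15.9% of those above background on all arrays. Since the list was chosen with this pattern known, the shares set a scale and are no test of it.

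Within the knockout, 9 of the 10 genes were higher on replicate 2 than on replicate 1, against 50.3% of all genes and 57.6% of those above background on all arrays. The median difference was 1.23 on the log2 scale. Fos (1.61), Egr1 (1.53), Ier2 (1.54), Atf3 (2.66) and Nr4a3 (1.55) were higher by at least 1, a 2-fold difference. So large an excess was seen in 1.74% of all genes and 2.61% of those above background on all arrays. Jun (0.93), Dusp1 (0.76), Junb (0.71) and Nr4a1 (0.58) were higher by less, and Fosb was lower on replicate 2 (-0.69), where it was below background.

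Within wild type the genes did not share a direction. Fosb (1.34), Fos (1.10), Nr4a3 (0.68), Egr1 (0.49), Ier2 (0.15) and Dusp1 (0.07) were higher on replicate 1, while Nr4a1 (-0.56), Atf3 (-0.34), Junb (-0.24) and Jun (-0.19) were lower there. The median difference was 0.11, and 0.015 with the quantile normalization repeated, where Ier2 (-0.0087) changed sign. Fos and Fosb were the 2 genes at least 1 apart, where 2.61% of all genes and 2.85% of those above background on all arrays were that far apart in either direction. With that normalization repeated, Fosb (1.26) was still at least 1 apart and Fos (0.99) fell just short. The knockout arrays were further apart than the wild-type arrays for 9 of the 10 genes, Fosb being the exception. That held for 51.5% of all genes and 51.6% of those above background on all arrays. With quantile normalization repeated, Nr4a1 became a further exception, at 0.55 between the knockout arrays and -0.62 between the wild-type arrays. There is 1 array on each side of such a difference, so it has no replicate check.

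**Figure D3:**
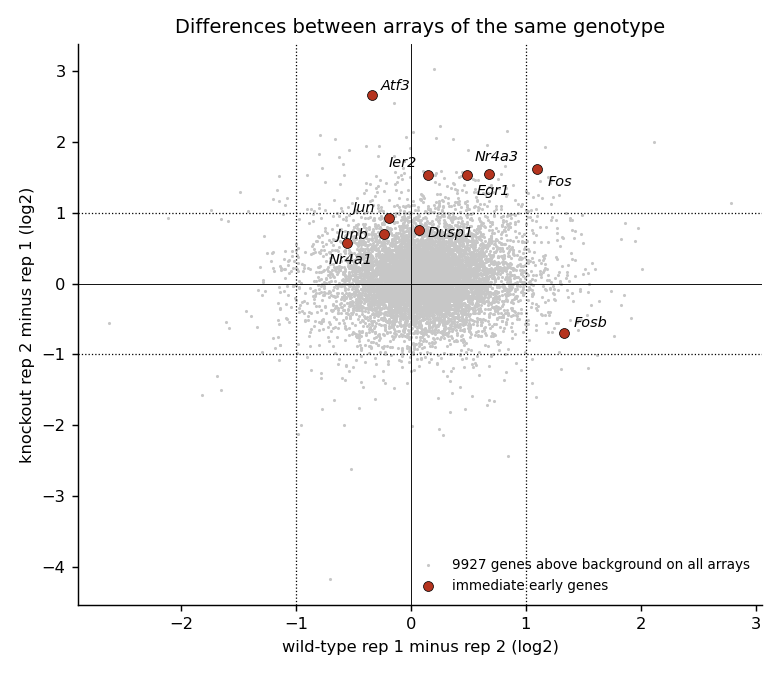
Difference between the 2 arrays of each genotype (log2), wild type on the horizontal and knockout on the vertical axis, for the 10 genes (red, labelled) and for the 9927 genes above background on all arrays (grey). Dotted lines mark a difference of 1, and Atf3, Fos, Nr4a3, Ier2 and Egr1 lie above the upper line.

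Knockout and wild type were compared to learn which brown fat genes change when Tsku is lost. None of the 10 genes passed an adjusted p of 0.05 in limma, nor did any gene (0% of 22180), and 5.56% of all genes but 0 of the 10 had an unadjusted p under 0.05. The genotypes overlapped for all 10, where 35.2% of all genes had arrays that did not overlap. The list was chosen from genes whose difference turned with the knockout array left out. Overlap and large p-values were therefore likely, and these shares are no test. The mean difference was above 0 for 7 of the 10 and below 0 for 3, with a median of 0.23 on the log2 scale beside 0.02 for all genes. Limma adjusted p-values ran from 0.895 to 0.998.

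In wild type Junb averaged 3.46 ± 0.17 (SD, n = 2), and on the knockout arrays 3.90 ± 0.50 (SD, n = 2), which gave a log2 difference of 0.44 with a 95% interval of -0.25 to 1.12. The means of Dusp1 were 6.69 ± 0.05 (SD, n = 2) and 7.10 ± 0.54 (SD, n = 2), a difference of 0.40 with an interval of -0.29 to 1.10. The means of Atf3 were 3.62 ± 0.24 (SD, n = 2) and 2.82 ± 1.88 (SD, n = 2). Its difference of -0.80 had the widest interval of the 10, -2.75 to 1.16. For Fosb the difference was -0.69 (-1.84 to 0.47) and for Fos 0.47 (-0.98 to 1.92). Differences of Nr4a3 (0.28), Nr4a1 (0.23), Egr1 (0.23), Jun (0.07) and Ier2 (-0.02) were smaller than the SE of each. That of Fos was also smaller than its SE (0.59), and that of Atf3 was about the size of its SE (0.797). Intervals of 8 of the 10 genes, all but Jun and Nr4a1, reached past 1 or -1, so 2-fold differences between genotypes in those genes were within the error of these arrays.

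The sign of the difference depended on which arrays were used, and the median moved most with the knockout arrays. Without knockout replicate 1, the knockout mean was higher for 9 of the 10 (median 0.76), and without knockout replicate 2, it was lower for 8 of the 10 (median -0.37). Egr1 went from 0.99 without knockout replicate 1 to -0.54 without knockout replicate 2, Nr4a3 from 1.05 to -0.50, Ier2 from 0.75 to -0.79 and Atf3 from 0.53 to -2.13. Junb (0.79 and 0.08) and Dusp1 (0.78 and 0.02) stayed above 0, and Fosb (-1.03 and -0.34) stayed below it. Leaving out a wild-type array moved the median less, to 0.19 without wild-type replicate 1 and to -0.04 without wild-type replicate 2. Fos moved from 1.02 to -0.08. Without wild-type replicate 1, Jun (-0.02), Ier2 (0.05) and Nr4a1 (-0.05) changed sign, with 6 genes higher and 4 lower in the knockout. Without wild-type replicate 2, Fos, Egr1 (-0.02) and Nr4a3 (-0.07) changed sign, with 4 higher and 6 lower. No gene of the 10 passed the limma threshold in any of these fits.

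**Figure D4:**
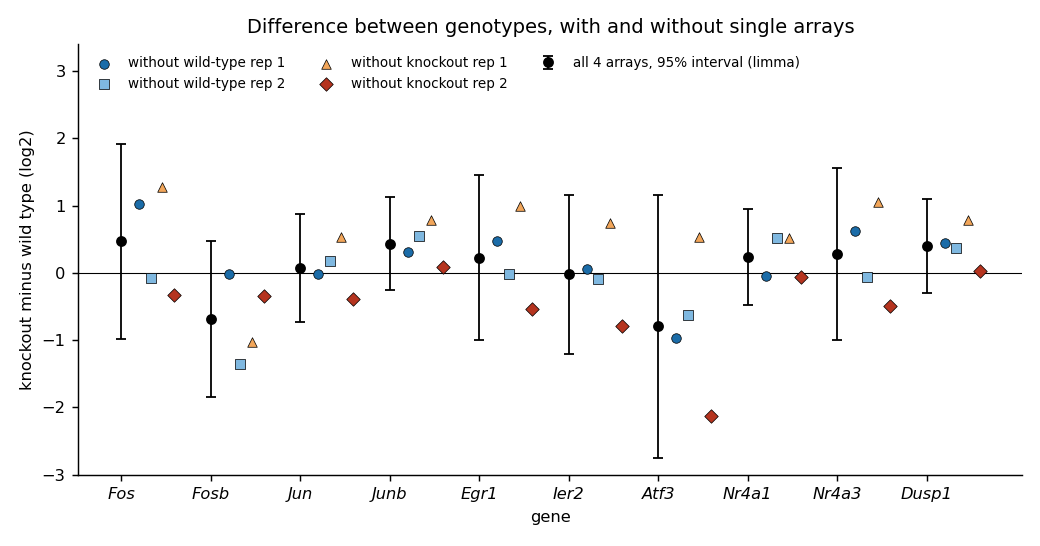
Knockout minus wild type (log2) for each gene, with all 4 arrays and the 95% interval from limma in black, and with each array left out in turn in colour. The intervals of all 10 genes include 0, and for Egr1, Nr4a3, Ier2, Jun, Fos, Nr4a1 and Atf3 the points without knockout replicate 1 and without knockout replicate 2 lie on opposite sides of 0.

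Taken one knockout array at a time, knockout replicate 1 was below wild-type replicate 1 for 8 of the 10 (median -0.81) and below wild-type replicate 2 for 7 (median -0.23). Knockout replicate 2 was above each wild-type array for 9 of the 10, with medians of 0.72 and 0.74. For these 9 genes the excess of knockout replicate 2 over wild-type replicate 1 lay in a narrow range, from 0.64 for Jun to 0.91 for Junb. The excess over wild-type replicate 2 ran from 0.24 for Nr4a1 to 1.82 for Fos. Comparisons that share an array are not independent of each other.

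Other genes of the early response came from lists written for this comparison. Of 49 further immediate early genes measured, 41 were higher on knockout replicate 2 than on replicate 1, with a median difference of 0.36. That held for 50.3% of all genes and 57.6% of those above background on all arrays. Of the 49, 20 were highest on knockout replicate 2 (against 25.1% and 28.6%) and 30 lowest on knockout replicate 1 (against 25.3% and 31.1%). By genotype 18 were higher and 31 lower in the knockout, with a median of -0.15 and 0 past the limma threshold. At an unadjusted limma p under 0.05, 1 was higher and 8 were lower in the knockout, where 5.56% of all genes passed in either direction. Plk3, a stress-responsive kinase, was also lowest on knockout replicate 1 and highest on knockout replicate 2, at 1.97 and 2.37 in wild type, against 1.04 and 2.46 on the knockout arrays. Id1, an inhibitor of helix-loop-helix factors, read 5.26 and 4.98 in wild type against 3.60 and 4.62, and Klf4, a Kruppel-like factor, 2.60 and 2.40 against 1.13 and 1.85. Klf2, a factor prominent in endothelium, read 3.81 and 4.03 against 2.03 and 2.44. In Id1, Klf4 and Klf2, named for their wide range over the arrays, the genotypes did not overlap, and 35.2% of all genes did not either. Their limma adjusted p-values lay between 0.813 and 0.872.

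The nearest relatives of the 10 varied among themselves. Egr2 (2.52 and 2.23 in wild type, 1.53 and 2.38 in the knockout) and Egr3 (1.71 and 2.16, then 0.17 and 1.38) were lowest on knockout replicate 1, as Egr1 was, but neither was highest on knockout replicate 2. Egr3 was below background on knockout replicate 1. Egr4 had a range of 0.42 over the 4 arrays. Nr4a2, the remaining Nr4a receptor, had the opposite split, with 3.23 and 2.70 in the knockout. Among 9 other AP-1 and related genes 5 were higher on knockout replicate 2, where 50.3% of all genes were. These included Jund, at 5.83 against 5.28, and Mafk, a small Maf protein that lacks an activation domain, at 2.60 against 1.68. Batf and Batf3, dim probe sets above background on wild-type replicate 1 only, had the order of Fosb at both ends, highest on wild-type replicate 1 and lowest on knockout replicate 2. Of 11 further dual-specificity phosphatases, 10 were higher on knockout replicate 2, against 50.3% of all genes, with a median of 0.18. Dusp4 was among these 10 and had arrays that did not overlap between the genotypes, at 4.21 and 4.10 in wild type, against 4.99 and 5.29 on the knockout arrays (log2 difference 0.98, SE 0.20, limma adjusted p = 0.872).

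Upstream components were read in the same way. Of 23 measured kinases, coactivators and factors that drive early genes, 13 were higher on knockout replicate 2 and 10 lower, with a median of 0.10. All 23 were above background on all arrays, and 57.6% of all such genes were higher there, with a median of 0.06. Srf, serum response factor itself, read 3.78 and 3.97 in wild type, against 2.73 and 3.51 on the knockout arrays. Its partner Elk3 (3.42 and 4.47 in the knockout) and the cyclic AMP factor Creb1 (3.82 and 4.76) had their lowest and highest values on the 2 knockout arrays, as Egr1 did. Crtc1, a coactivator of CREB, read 3.04 and 1.99 in wild type and had 2.20 and 3.09 on the knockout arrays, the order of Fos. No gene of this list passed the limma threshold by genotype, with a median difference of -0.08.

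Of 13 measured genes that cyclic AMP induces in brown fat, 8 were higher on knockout replicate 2, with a median difference of 0.02 and none apart by 1. Dio2, which encodes the enzyme that activates thyroid hormone within the tissue, read 2.63 and 2.32 in wild type, against 4.30 and 4.71 on the knockout arrays, high on both knockout arrays. Among heat shock genes, Hspa1a and Hspa1b were highest on wild-type replicate 1. Hspa1a, an inducible Hsp70, read 4.04 and 2.49 in wild type, against 2.05 and 2.04 on the knockout arrays, and Hspa1b 3.28 and 2.09 against 1.97 and 1.29. Of 10 heat shock genes 6 were higher on knockout replicate 2 than on replicate 1, with a median of 0.11. Both this count and that of the cyclic AMP genes stand beside 50.3% of all genes and 57.6% of those above background on all arrays.

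Markers of several other cell types also differed between the knockout arrays, while those of others did so little or in mixed directions. For scale, 50.3% of all genes and 57.6% of those above background on all arrays were higher on knockout replicate 2. All 12 endothelial markers were higher on knockout replicate 2 than on replicate 1 (median 0.45), and 11 of the 12 were highest there. Their summed level on the log2 scale was 9.26 and 9.67 in the knockout and 9.47 and 9.27 in wild type. Of 13 macrophage markers 10 were higher on knockout replicate 2 (median 0.73), with a summed level of 7.25 and 8.12 in the knockout and 8.07 and 8.14 in wild type. All markers of both lists were above background on all 4 arrays. All 8 smooth muscle and pericyte markers were higher on knockout replicate 2 as well (median 0.25; summed level 9.13 and 9.37 in the knockout, 9.56 and 9.30 in wild type). The 16 skeletal muscle markers ran the other way (3 of 16 higher, median -0.99), as did the 10 liver markers (0 of 10 higher, median -0.72). Summed levels were 7.70 and 6.23 for muscle and 9.02 and 8.69 for liver in the knockout, against 8.37 and 8.92 and 8.10 and 8.27 in wild type. Of the 12 brown adipocyte markers 7 were higher on knockout replicate 2 (median 0.01; summed level 12.28 and 12.29 in the knockout, 12.09 and 12.04 in wild type). Of 8 fibroblast markers 2 were higher on knockout replicate 2 (median -0.11; summed level 9.08 and 9.14 in the knockout, 9.32 and 9.27 in wild type), of 5 nerve sheath markers 3 (median 0.05; 3.81 and 4.82, then 3.90 and 3.66) and of 8 neutrophil and mast cell markers 6 (median 0.22; 4.09 and 4.26, then 4.35 and 4.21). Of the last 2 lists 3 and 2 markers were above background on no array. By genotype mean, all 16 muscle and all 13 macrophage markers were lower in the knockout (medians -1.74 and -0.48). Of the 12 brown adipocyte markers 11 were higher there, and of the 10 liver markers 9 (medians 0.19 and 0.57). Endothelial markers were split, with 7 higher and 5 lower (median 0.10). None of these markers passed the limma threshold. The part of these cell types in the levels of the early genes was not tested, and in whole tissue fewer cells of a type and less RNA per cell cannot be told apart.

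Outside the lists, the genes nearest to the 10 in their profile were found by the Euclidean distance between a gene's 4 deviations from its own mean and the median deviations of the 10. Over 9451 candidate genes above background on all 4 arrays, the nearest were Notch1, a receptor of cell-to-cell signalling, at a distance of 0.08 on the log2 scale, Fbxl20 (0.09), Ephb4, a receptor tyrosine kinase (0.10), Nfxl1 (0.11), Apod, a lipid-binding secreted protein (0.11), Adap2 (0.13), She (0.14), Mrps28 (0.15), Slc1a1 (0.16) and Vps39 (0.16). These 10 were 1.05 to 1.35 higher on knockout replicate 2 than on replicate 1, and 0 of them stood in a list above. The members themselves lay 0.31 (Ier2) to 1.71 (Fosb) from their common median profile. With 4 arrays a small distance is found easily among so many genes, and the likeness is a description of these arrays.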

How the data were processed

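Total RNA of brown adipose tissue from 2 wild-type and 2 Tsku knockout samples was labelled with biotin and hybridised to 1 array each (labels' protocols). A single table of log2 expression values was deposited by the authors, with 41345 probe sets. The submitters' processing notes name RMA, oligo and limma, with no role or version; the genome build is not given in the sources used here. RMA corrects background, quantile-normalizes arrays and summarises probes, which compresses differences of dim probe sets. The deposited log2 values sit lower than RMA usually gives, for a reason not given in the sources used here, so differences between arrays are read rather than absolute levels.

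Probe sets with 1 symbol in the platform annotation (23521) were reduced to the highest-mean probe set of each of 22180 genes. All 10 members had 1 probe set and matched the RefSeq gene table (GRCm38.p6) by Entrez ID. The genotypes were compared with limma 3.58.1 under R 4.3.3 (lmFit, eBayes, two-sided, no filter, Benjamini-Hochberg over all genes; 2 residual degrees of freedom). Single arrays were compared by differences with no test. Counts of members past a log2 difference of 1 were set beside the same counts over all genes. Scripts were tested on simulated data. The members and lists were chosen with earlier results of these data known. Genes named outside the members follow a rule. From a list, up to 4 with the widest range over arrays were taken, among those above background on 1 array or more. The 10 nearest profiles were also taken, leaving out predicted, microRNA, small nucleolar RNA, and olfactory or vomeronasal receptor genes. Not all genes the rule allows are described. Alternatives covered a replicate block, dim-gene filters, other probe set rules, scaling, prior settings and each array left out.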

Additional observations from a re-analysis of the deposited data

How the results depend on the processing

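Among the 90 genotype differences of the 10 genes under the 9 alternatives that kept all arrays, 0 changed direction. No limma adjusted p among them fell below 0.827. Each gene had 1 probe set, so other probe set rules gave the same values. The replicate block, filters and prior settings do not alter the estimate. Only repeated quantile normalization and median centring could have changed a direction. With an array left out, 13 of 40 changed direction, with limma adjusted p-values of 0.638 or more. The ranges over the single arrays left out were -0.34 to 1.27 for Fos, -0.39 to 0.54 for Jun, -0.54 to 0.99 for Egr1, -0.79 to 0.75 for Ier2, -2.13 to 0.53 for Atf3, -0.055 to 0.52 for Nr4a1 and -0.50 to 1.05 for Nr4a3, and the median of the 10 ran from -0.37 to 0.76. Fits without an array leave 1 sample in an arm, which is assumed to vary like the others. The count of all genes past the threshold was 0 in the fit reported, 1 with a replicate block, 1 with median centring, 1 with a prior variance that follows mean expression, and 0 to 15 with an array left out (15 without wild-type replicate 1, 2 without wild-type replicate 2); none was among the 10. Same-numbered deviations had a correlation of -0.07 over all genes, which showed little shared pattern by replicate number but cannot exclude paired samples. The block is therefore not read as a paired design. Of the members, 2 were at least 1 apart between the wild-type arrays, and 1 (Fosb) with quantile normalization repeated, which moved the median wild-type difference from 0.11 to 0.015, while 5 were between the knockout arrays under each scaling tried. Fosb is limited by signal, being below background on 2 of 4 arrays.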
